A study of Mus musculus with 145 samples.

Results

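Transposon insertion sites were compared between tumours of the anterior and the posterior mammary glands of untreated mice. The study mapped integrations in 94 untreated and 51 resistant tumours, and all 94 untreated ones were used here. A tumour was taken as anterior where the gland name after the mouse number in its title began with 1, 2 or 3 (54 tumours), and as posterior where it began with 4 or 5 (40 tumours). By first digit the untreated tumours numbered 19, 24, 11, 25 and 15. A joint gland name began with 2.3 in 11 tumours and with 4.5 in 3. Some posterior names of gland 5 gave both sides (5RL or 5R.L) or no side. The titles do not define the digits, which were read by the usual numbering of mouse mammary glands. They came from 23 mice with 1 to 8 tumours each (median 4), and 20 of these mice had tumours of both classes. Mice were told apart by the number in the title alone, and over the whole series the titles hold 49 such numbers, whereas the labels state 53 mice.

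Both classes carried WAP-Cre, LSL-PB and LSL-PIK3CA(H1047R) together with ATP1, and neither was treated. In these mice the promoter of whey acidic protein, a milk protein gene of secretory mammary epithelium, drives Cre once the animals are mated and pregnancy advances. Cre then switches on the piggyBac transposase (PB) and the H1047R mutant of PIK3CA, the catalytic subunit of PI3K alpha, in the same cells. The ATP1 construct is the mobile transposon. The promoter restricts the model to cells that turned on this milk gene, and the tumours of a mouse share its pregnancy, its handling and the total tumour volume at which it was taken. The 51 resistant tumours (38 anterior, 13 posterior) had the same genotype and grew under daily BYL719, an inhibitor of PI3K alpha, and they enter a single comparison below. As a library was made from bulk tumour DNA, the reads at a site cannot tell how many cells carried the insertion.

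The mouse has 5 pairs of mammary glands, the cervical and thoracic pairs in front and the abdominal and inguinal pairs behind. The pairs arise as placodes along the milk line of the embryo and differ in the signals they need. Loss of Fgf10, a growth factor made below the skin, spares only the fourth pair in mouse embryos, and Nrg3, a ligand of the receptor ERBB4, helps to set where placodes form. PiggyBac cuts and pastes at the tetranucleotide TTAA, and a new copy can truncate the gene it enters or drive it from the promoter of the transposon. In such screens, genes hit again and again across tumours are taken as candidates for a role in tumour growth.

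The deposited site table gave the 4 bases at each insertion and the 4 bases that follow. The most frequent contexts of each class are shown first, with the TTAA target in capitals, because they show what was counted as an insertion.
anterior, most frequent: TTAAagaa
anterior, next: TTAAaaaa
posterior, most frequent: TTAAaaaa
posterior, next: TTAAagaa
The same pair of contexts led in both classes, at 2.76% and 2.73% of the 35840 anterior TTAA sites and at 2.69% and 2.67% of the 25575 posterior ones. The base after TTAA was A at 42.3% of anterior and 41.8% of posterior sites, G at 26.4% and 27.3%, T at 21.6% and 21.1%, and C at 9.70% and 9.88%. Sites outside TTAA made up 3.81% of the sites kept in anterior and 3.58% of those kept in posterior tumours.

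The most-read insertions in Trps1, the gene hit in the most tumours, and in Fbxw7 follow as positions of build mm10, because the results below return to both genes. The strand is that of the site in the deposited table.
Trps1, anterior, chr15:50835347, plus strand, 17026 reads: TTAAggat
Trps1, anterior, chr15:50829616, plus strand, 3668 reads: TTAAggtc
Trps1, posterior, chr15:50677474, plus strand, 8092 reads: TTAAagat
Trps1, posterior, chr15:50828280, plus strand, 2688 reads: TTAAggct
Fbxw7, anterior, chr3:84954512, minus strand, 754 reads: TTAAaaat
Fbxw7, anterior, chr3:84967294, plus strand, 590 reads: TTAAaatc
Fbxw7, posterior, chr3:84914144, plus strand, 743 reads: TTAAatgt
Fbxw7, posterior, chr3:84972304, plus strand, 173 reads: TTAAtggg
Of the 4 Trps1 sites shown, 3 lay within the same stretch of the gene, 55284, 61015 and 62351 bases after its start, and all 4 lay against the orientation of the gene. These 4 were picked for their reads. Over all Trps1 sites, 75 of 153 anterior and 64 of 128 posterior ones had the orientation of the gene. They lay from 6.22 to 227 kb after its start in anterior and from 2.95 to 228 kb in posterior tumours.

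Of the 94 libraries, 9 stood apart and are named before the results, because tumour measures are given with and without them where they matter. The library of posterior tumour 34, from a gland 4L, listed 588 positions of at least 10 reads, and 99.7% of these were also positions of anterior tumour 44, from gland 1L of another mouse. Since each position was kept in the tumour with the most reads, the posterior library kept 3 sites and the anterior one 705. The other 8 libraries had from 1 to 24 positions of at least 10 reads (5 anterior, 3 posterior), whereas the lowest of the remaining libraries had 72. In anterior tumour 34 a single site held 98.9% of the reads, and in posterior tumour 11 a single site held 97.6%. Anterior tumour 34 and anterior tumour 51 carry the name of the same gland 3R of a single mouse, the latter with R2 in its title, and kept 1 and 0 sites. They may come from the same tumour, since the 94 libraries hold 93 mouse and gland names (53 anterior), and n counts libraries as labelled. No untreated library had under 1000 reads (0 of 94), and 6 had under 5000.

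The number of insertion sites did not differ detectably between the classes. An anterior tumour kept a median of 421 sites (0 to 2689, n = 54) and a posterior tumour a median of 534.5 (0 to 3017, n = 40), and the ranges overlapped almost wholly. Within mice, the geometric mean ratio of anterior to posterior was 1.13, with a 95% interval of 0.583 to 2.16 (two-sided permutation of gland class within mice, p = 0.714, adjusted p = 0.893 over 7 tumour measures). Anterior tumours had the higher mean in 10 of 20 mice. Without the 9 libraries that stood apart, the medians were 447 (89 to 2689, n = 49) and 541.5 (69 to 3017, n = 36). The ratio was then 0.988 with a narrower interval of 0.751 to 1.30 (permutation p = 0.933).

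By gland digit the median number of sites was 377 (12 to 2660) for digit 1, 423.5 (24 to 1700) for digit 2 and 775 (0 to 2689) for digit 3. It was 360 (0 to 2043) for digit 4 and 559 (1 to 3017) for digit 5. The highest and the second lowest of these medians both belonged to the anterior class, so the digits did not fall into 2 separate levels. The 11 tumours with a joint name that began with 2.3, counted under digit 2, had a median of 166 sites (24 to 643). All 11 had the title form tgTum described next. The posterior tumour with 3017 sites had the gland name 5RL, which gives both sides.

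**Figure D1:**
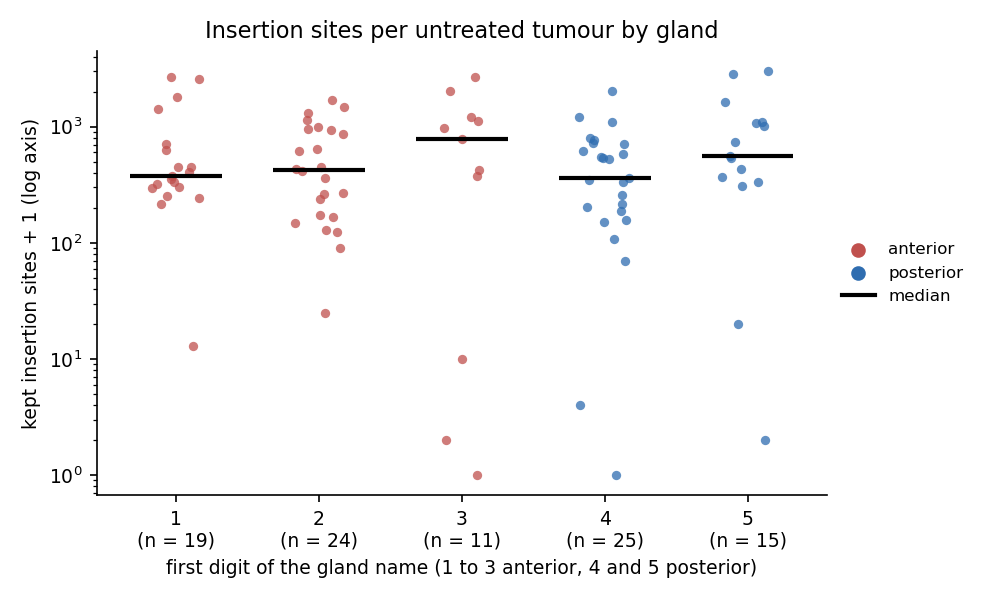
Number of kept insertion sites plus 1 (log axis) of each of the 94 untreated tumours, by the first digit of the gland name, with anterior tumours in red, posterior tumours in blue and the median of each digit as a black line. The medians were 377, 423.5, 775, 360 and 559 sites, and each digit spanned over a factor of 10.

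The titles of untreated tumours had the forms TgTum (36 anterior and 25 posterior tumours of 15 mice) and tgTum (18 and 15 tumours of 8 mice). Within TgTum the medians were 702 anterior and 729 posterior sites, and within tgTum 257.5 and 258. The medians thus lay farther apart between the title forms than between the gland classes of either form. Library reads moved with the title forms as well, with medians of 72268.5 and 51833 in TgTum and 22182 and 24501 in tgTum, and their part in the site number was not tested. Across both forms, anterior libraries held a median of 48339 reads (2950 to 938987) and posterior libraries 44093.5 (3384 to 417815). The within-mouse ratio of reads was 1.09 (0.652 to 1.84, permutation p = 0.734).

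At an equal depth of 5000 reads, which 51 anterior and 37 posterior libraries reached, an anterior library would list a median of 607 positions and a posterior one 742. The within-mouse ratio was 0.854 (permutation p = 0.322), and the difference again did not pass the test. Its direction was opposite to that of the ratio of kept sites over all libraries (1.13). Without the 9 libraries that stood apart, the ratio of kept sites (0.988) had the same direction as here. The count at 5000 reads took every listed position, with no minimum of 10 reads and no assignment to the tumour with the most reads. It also covered fewer libraries (88), so the ratios differ in more than depth.

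**Figure D2:**
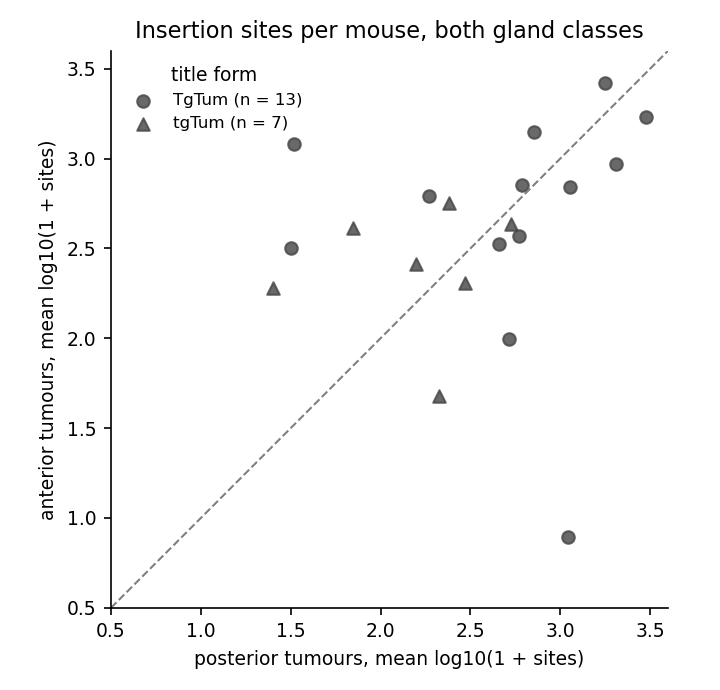
Mean log10(1 + sites) of the anterior tumours (vertical axis) against that of the posterior tumours (horizontal axis) for the 20 mice with both classes, circles for title form TgTum and triangles for tgTum, with the line of equality dashed. The mice lie on either side of the line, 10 above it and 10 below.

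The number of gene regions hit and the share of sites in genes did not differ detectably between the classes. In all, 63785 sites were kept, 37260 in anterior and 26525 in posterior tumours, and 9118 of the 13391 gene regions of the authors' table held at least 1 of them. Anterior tumours hit 6917 regions and posterior tumours 5766, and a tumour hit a median of 191.5 and 240 regions. The ratio of regions hit per tumour was 1.10 (0.591 to 2.06, permutation p = 0.765), and 0.994 (0.762 to 1.29, p = 0.962) without the 9 libraries that stood apart. A gene region held a median of 48.02% of the sites of an anterior tumour (0 to 53.2%) and 48.7% of those of a posterior tumour (0 to 52.8%). The within-mouse difference was 0.07 percentage points (-3.72 to 3.88, permutation p = 0.974).

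Chromosome 10, which held more sites than any other chromosome in both classes, took a median of 25.1% of the sites of an anterior and 24.9% of those of a posterior tumour. The difference was -0.73 percentage points (-3.29 to 1.83, permutation p = 0.578), and it turned to 0.73 (-0.62 to 2.10, p = 0.285) without the 9 libraries that stood apart. Such an excess on a single chromosome is usual around the place where a transposon started, since piggyBac also makes short local hops. Among the other autosomes and the X chromosome the class medians ranged from 1.95% (chromosome 19, anterior) to 5.39% (chromosome 3, posterior). The posterior value of chromosome 19 was 2.01% and the anterior value of chromosome 3 was 5.26%.

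Few positions were shared among the tumours of a mouse in either class. Of the positions with at least 10 reads, a median of 1.39% in anterior and 1.23% in posterior tumours also had 10 reads in another tumour of the same mouse. The within-mouse difference was 2.87 percentage points (-1.43 to 7.33, permutation p = 0.366), and it was 0.13 (-0.22 to 0.48, p = 0.471) without the 9 libraries that stood apart. An anterior and a posterior tumour of a mouse shared a median of 0.787% of the positions of the smaller library (100 pairs). A pair of anterior tumours of a mouse shared 0.939% (50 pairs) and a pair of posterior tumours 0.877% (23 pairs). Anterior and posterior tumours of different mice shared 0.730% (1838 pairs), so that sharing within a mouse was close to sharing between mice.

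A few tumours were dominated by a single insertion. The most-read kept site held a median of 2.66% of the reads of an anterior library (0.463 to 98.9%) and 2.00% of those of a posterior library (0.422 to 97.6%), a within-mouse difference of 1.13 percentage points (-5.07 to 7.27, permutation p = 0.697). It held at least 10% of the reads in 11 of 53 anterior and 5 of 39 posterior tumours with a kept site, and in 7 of 49 and 3 of 36 without the 9 libraries that stood apart. The clearest case in a library of many sites lay at Myc, the gene of a growth-promoting transcription factor, in anterior tumour 1, from a gland 2L, and the genes of these dominant sites were picked after their values were seen. Its most-read site lay on the plus strand at chr15:61984801, 540 bases before the RefSeq start of Myc and in the orientation of the gene. It held 110463 reads, 55.9% of a library with 1135 kept sites.
Myc, anterior, chr15:61984801: TTAAtaaa
Myc was hit in 1 of 54 anterior and 0 of 40 posterior tumours. The largest posterior one in a gene region held 15.2% of the reads of posterior tumour 8, in a region that the table gives only by a transcript identifier. Other dominant sites in genes lay in Rnf41, which encodes a ubiquitin ligase that lowers ERBB3 (24.4% of the reads, anterior), in Pard3b, a polarity gene (11.5%, anterior), and in Cul1, a scaffold of ubiquitin ligases (11.4%, posterior). Trps1 held the dominant site of 1 tumour of each class at this threshold, with 10.3% of the reads in the anterior and 11.6% in the posterior tumour. Without a threshold, Trps1 held the most-read site of 4 of 53 anterior and 2 of 39 posterior tumours.

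Gene by gene, no difference between the gland classes passed the test. A tumour was called hit in a gene when at least 1 kept site of 10 or more reads lay in its region. Of the 1470 genes hit in at least 5 tumours, 0 (0.0%) passed an adjusted p of 0.05 in the exact test stratified by mouse with Benjamini-Hochberg adjustment. At an unadjusted p under 0.05 there were 46 genes (3.13%), of which 24 (1.63%) had a higher share in anterior and 22 (1.5%) in posterior tumours. With Fisher's exact test, which ignores the mouse, 0 genes passed and 36 (2.45%) had an unadjusted p under 0.05. The share was higher in anterior tumours for 791 genes and in posterior tumours for 678, and the median difference was 0.56 percentage points. A first call needed p = 3.4e-05, which the number of hits allowed in 256 of the genes (17.4%), while the smallest p found was 0.00268. Genes hit in few tumours could therefore not have been a first call at any split between the classes.

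**Figure D3:**
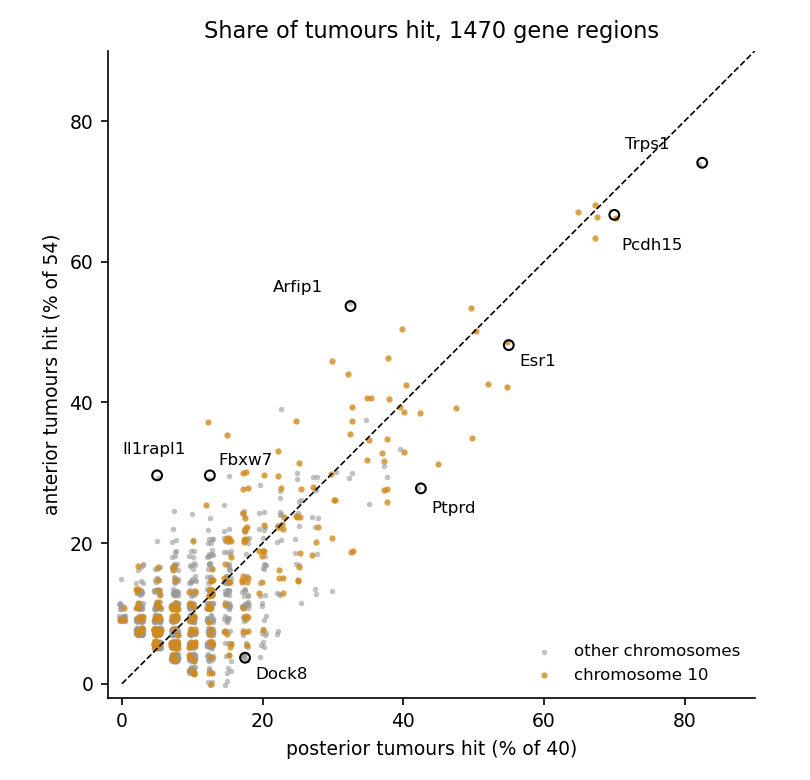
Share of the 54 anterior tumours hit (vertical axis, %) against the share of the 40 posterior tumours hit (horizontal axis, %) for the 1470 gene regions tested, with chromosome 10 in orange, a small random shift on each point, the line of equality dashed and 8 genes named. The genes scatter on both sides of the line, and 0 of them passed the adjusted threshold.

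The 12 genes with the smallest p are described as values, since each had an adjusted p of 1. Of these, 9 had the higher share in posterior tumours. Dock8, an exchange factor that activates the GTPase CDC42, was hit in 2 anterior (3.70%, 95% interval 0.452 to 12.7) and 7 posterior tumours (17.5%, 7.34 to 32.8, exact p = 0.00268). Its anterior sites had 10 and 15 reads and its posterior sites from 10 to 338. In the 20 mice with both classes, Dock8 was hit in posterior tumours only in 6 mice and in anterior tumours only in 0.

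Ppp2r5e, a regulatory subunit of the phosphatase PP2A, was hit in 0 anterior (upper bound 6.603%) and 6 posterior tumours (15%, 5.71 to 29.8, exact p = 0.00335). Ftx, a long noncoding RNA gene of the X inactivation centre, was also hit in 0 and 6 tumours (exact p = 0.00603). Dis3l2, a nuclease that degrades uridylated RNA, was hit in 1 and 6 tumours (exact p = 0.00643). Bbx, which encodes an HMG-box protein, was hit in 1 and 6 tumours as well (exact p = 0.00765). The hits of Ftx and Dis3l2 in posterior tumours came from 6 mice each, those of Ppp2r5e from 5 and those of Bbx from 4.

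Prmt2, an arginine methyltransferase gene on chromosome 10, and Adipor2, a receptor of adiponectin, were each hit in 0 anterior and 5 posterior tumours (12.5%, 4.19 to 26.8, exact p = 0.0107 and 0.0125). Map2k4, a kinase that activates JNK, was hit in 3 anterior (5.56%) and 7 posterior tumours (17.5%, exact p = 0.0127). Thsd7a, a thrombospondin-domain membrane protein, was hit in 4 (7.41%) and 8 (20%, exact p = 0.0131). Sites in these genes held small parts of a library, and the largest share for Map2k4 was 0.217% of the reads.

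The other 3 genes had the higher share in anterior tumours, and all have long regions. Il1rapl1, a synaptic receptor of the interleukin-1 receptor family on the X chromosome, was hit in 16 anterior (29.6%, 17.98 to 43.6) and 2 posterior tumours (5.0%, 0.611 to 16.9, exact p = 0.0110). By gland digit it was hit in 8 of 19, 5 of 24, 3 of 11, 0 of 25 and 2 of 15 tumours, and in the mice with both classes it was hit in anterior tumours only in 10 and in posterior tumours only in 1. Its region spans 1370 kb (chrX:86747242-88117623). Of its 22 anterior sites 14 had the orientation of the gene, and of its 2 posterior sites 0 did.

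Fstl5, a follistatin-like secreted protein, was hit in 8 anterior (14.8%, 6.62 to 27.1) and 0 posterior tumours (upper bound 8.81%, exact p = 0.0113). Nbea, which encodes neurobeachin, a protein of membrane traffic, was hit in 13 anterior (24.1%, 13.5 to 37.6) and 3 posterior tumours (7.5%, 1.57 to 20.4, exact p = 0.0135). Their regions span 637 and 561 kb.

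**Figure D4:**
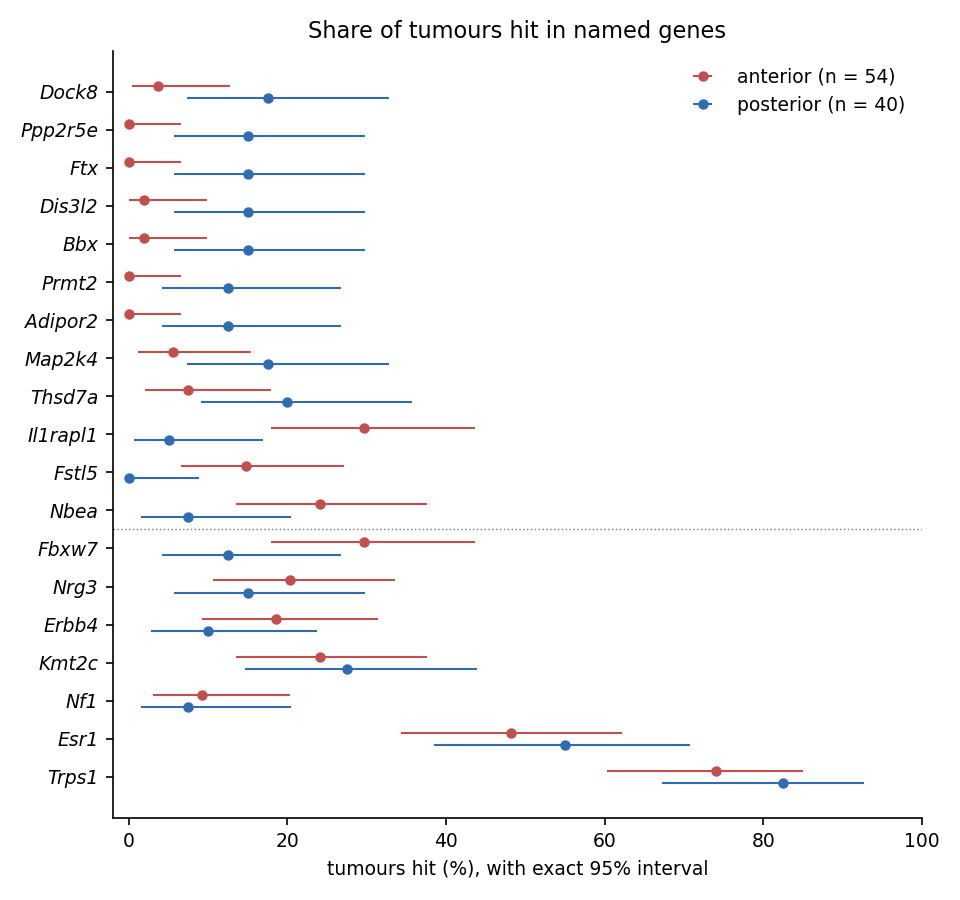
Percent of tumours hit in 19 named genes, anterior in red (n = 54) and posterior in blue (n = 40), with exact Clopper-Pearson 95% intervals that cover counting of tumours only. The 12 genes above the dotted line had the smallest p and were picked for it; below it, the intervals of Fbxw7, Nrg3, Erbb4, Kmt2c, Nf1, Esr1 and Trps1 overlap between the classes.

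Fbxw7, the part of a ubiquitin ligase that picks proteins such as cyclin E for destruction, was hit in 16 anterior (29.6%, 17.98 to 43.6) and 5 posterior tumours (12.5%, 4.19 to 26.8). The exact test within mice gave an unadjusted p of 0.0391 (adjusted p = 1), and Fisher's exact test, without the mouse, 0.0781. By gland digit it was hit in 7 of 19, 5 of 24, 4 of 11, 4 of 25 and 1 of 15 tumours. In the mice with both classes it was hit in anterior tumours only in 9, in posterior tumours only in 1, and in both in 4. Leaving out each mouse in turn, the difference of the shares, 17.1 percentage points, stayed between 13.8 and 19.9. It was 2.41 for sites of at least 100 reads, 4.91 among the 100 most-read sites of each tumour, 9.81 for sites of at least 0.1% of the reads, 3.33 in title form tgTum alone and 24.1 in TgTum alone. The most-read anterior site held 1.45% of its library and the most-read posterior one 0.671%.

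The row of the authors' table for Arfip1, a gene of membrane traffic, spans 1393 kb (chr3:84496064-85889518) and is 1305 kb longer than the RefSeq gene with its upstream part. It contains the whole Fbxw7 region (chr3:84813577-84979198), so their hits are not separate. Arfip1 was named after the values were seen, as the gene outside chromosome 10 hit in the most tumours after Trps1. Its row was hit in 29 anterior (53.7%, 39.6 to 67.4) and 13 posterior tumours (32.5%, 18.6 to 49.1, exact p = 0.0282, adjusted p = 1). Within the RefSeq gene itself, 5 anterior and 0 posterior tumours were hit, and in the rest of the row outside Fbxw7, 16 and 9. Of the 12384 regions with a RefSeq gene, 88 were over 100 kb longer than that gene with its upstream part, and their hits may belong to neighbours.

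Trps1, a transcriptional repressor of the GATA family that is strongly expressed in mammary epithelium, was the most frequent target in both classes. It was hit in 40 anterior (74.1%, 60.3 to 85.0) and 33 posterior tumours (82.5%, 67.2 to 92.7), which did not differ detectably (exact p = 0.288, adjusted p = 1). By gland digit the shares were 68.4% (43.4 to 87.4), 79.2% (57.8 to 92.9), 72.7% (39.03 to 94.0), 76.0% (54.9 to 90.6) and 93.3% (68.1 to 99.8), with intervals that all overlap. In the 20 mice with both classes Trps1 was hit in both in 15, in anterior tumours only in 2 and in posterior tumours only in 2. The authors' deposited table, by counting rules of its own, gave 95.7% of untreated tumours with an insertion in this gene.

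A hit tumour carried a median of 3 separate Trps1 sites in either class, up to 20 in anterior and 22 in posterior tumours. The 153 anterior sites had a median of 63 reads and the 128 posterior sites 62.5. In the orientation of the gene, which was read from the end of the region that the authors had extended, lay 75 of 153 anterior sites (49.02%) and 64 of 128 posterior sites (50%). The sites covered the gene from 6.22 to 227 kb after its start in anterior and from 2.95 to 228 kb in posterior tumours, with medians of 121 and 131 kb. Positions and orientations of both classes were therefore intermixed along the gene.

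**Figure D5:**
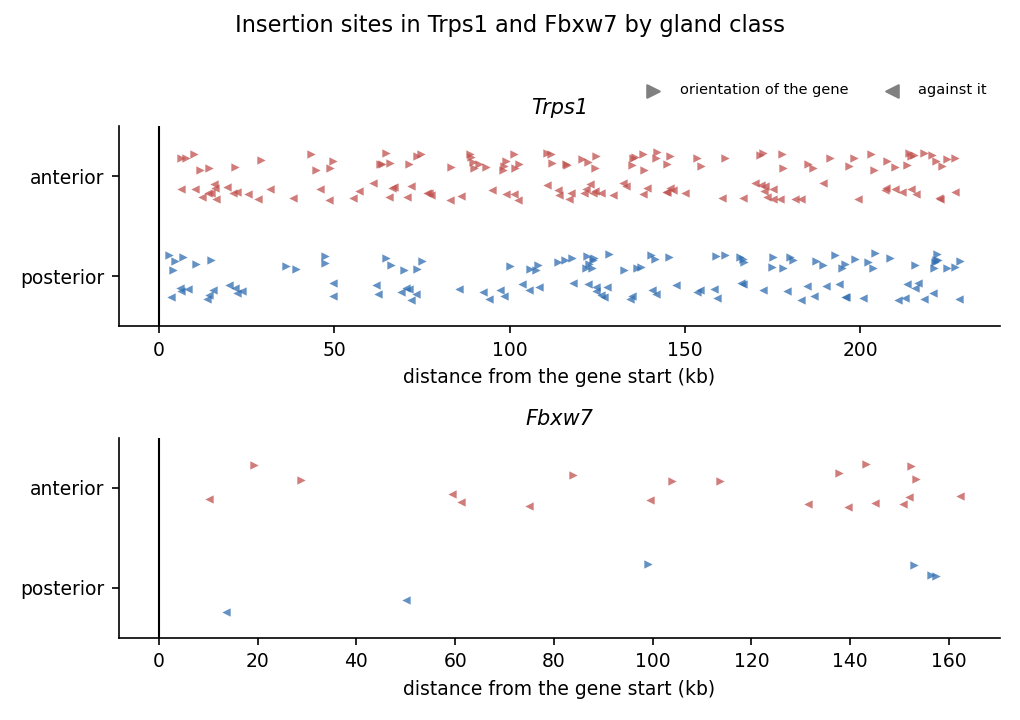
Kept insertion sites in Trps1 (top) and Fbxw7 (bottom) by distance from the gene start in kb (horizontal axis), with anterior sites in red and posterior sites in blue, right-pointing marks for the orientation of the gene and left-pointing marks against it. The 153 anterior and 128 posterior Trps1 sites cover the same length, and Fbxw7 holds 20 anterior and 6 posterior sites.

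The other 9 of the 10 genes hit in the most tumours lie on chromosome 10 and had shares from 42.6% to 70.0% in either class. Pcdh15, a protocadherin, was hit in 36 anterior (66.7%) and 28 posterior tumours (70.0%). Nkain2, a partner of the sodium pump, was hit in 37 (68.5%) and 27 (67.5%). Ctnna3, which encodes alpha-T-catenin, was hit in 36 (66.7%) and 26 (65.0%), and Grik2, a glutamate receptor, in 36 (66.7%) and 27 (67.5%). Utrn, Plekhg1 and Ascc3 differed by at most 4.54 percentage points.

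Esr1, the estrogen receptor gene and a regulator of the mammary epithelium, was hit in 26 anterior (48.1%, 34.3 to 62.2) and 22 posterior tumours (55.0%, 38.5 to 70.7, exact p = 0.499). Ptprk, a receptor phosphatase of cell contacts, was hit in 23 (42.6%, 29.2 to 56.8) and 22 (55.0%, 38.5 to 70.7, exact p = 0.504). Esr1 sites had the orientation of the gene in 33 of 54 cases in anterior and 30 of 48 in posterior tumours.

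Outside chromosome 10, 394 genes were hit in at least 10% of the anterior and 519 in at least 10% of the posterior tumours, and 238 were in both lists. These were 60.4% of the anterior and 45.9% of the posterior list, and 10% stands for 6 tumours of 54 and 4 of 40, so the posterior list admits genes with fewer hits. The overlap moved with the cut, and at 20% it was 43 genes, 55.1% of the anterior and 55.8% of the posterior list. How many genes would be shared regardless of gland class was not tested. The most frequent after Trps1 and the Arfip1 row were genes with very long regions, named after the values were seen. Cntnap2 was hit in 20 anterior (37.04%) and 14 posterior tumours (35%), Lsamp in 18 (33.3%) and 16 (40%), Dmd in 17 (31.5%) and 15 (37.5%), and Ptprd in 15 (27.8%) and 17 (42.5%). Pisd-ps3, a pseudogene on an unplaced contig whose reads may also come from its parent gene, was hit in 21 (38.9%) and 9 (22.5%, exact p = 0.0775).

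No gene that marks a position along the body or acts in mammary placodes passed the test. Of 55 such genes, 24 had a region, 18 were hit, 8 were tested and 0 were called. Of the 8, 6 had the higher share in anterior and 2 in posterior tumours, with a median difference of 5.14 percentage points beside 0.56 over all genes tested. Nrg3 was hit in 11 anterior (20.4%) and 6 posterior tumours (15%, exact p = 0.556), and its receptor Erbb4 in 10 (18.5%) and 4 (10%, exact p = 0.521). Gli3, a transcription factor of Hedgehog signalling, was hit in 7 and 3 tumours, Eda, the ligand ectodysplasin, in 7 and 3, and its receptor gene Edar in 6 and 4. Hoxb3, a HOX gene, was hit in 0 anterior and 2 posterior tumours. Fgf10 was hit in 1 anterior and 2 posterior tumours. At least 1 gene of the list was hit in 53.7% of anterior (39.6 to 67.4) and 47.5% of posterior tumours (31.5 to 63.9).

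PI3K-AKT-mTOR genes, the pathway that the mutant PIK3CA switches on, were hit in 57.4% of anterior and 50% of posterior tumours, and 0 of 5 tested members were called. Inpp4b, a phosphoinositide phosphatase, was hit in 13 (24.1%) and 9 (22.5%) and Sgk1, a kinase downstream of PI3K on chromosome 10, in 11 (20.4%) and 11 (27.5%). Pik3ca, named after its values were seen, was hit in 1 and 0 tumours. At least 1 gene of the list of RAS-MAPK brakes carried a site in 27.8% and 30.0%, with 0 of 4 tested members called. Nf1, whose protein neurofibromin speeds the shut-off of RAS and which the title of the study names, was hit in 5 anterior (9.26%, 3.08 to 20.3) and 3 posterior tumours (7.5%, 1.57 to 20.4, exact p = 0.716). The most-read Nf1 site held 5.77% of the reads of an anterior library. Rasa1, a further GTPase-activating protein of RAS, was hit in 6 (11.1%) and 3 (7.5%).

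Of the 13 NOTCH, WNT and Hippo genes tested, 9 had the higher share in anterior and 4 in posterior tumours, with a median difference of 5.37 percentage points and 0 calls. Over all genes tested these were 791, 678 and 0.56, and the lists that follow are to be read beside the same values. Besides Fbxw7 they include Lats1, a Hippo kinase gene on chromosome 10 (11 and 6 tumours). Tead1, which binds DNA for the Hippo pathway (11 and 5), Rbpj, the effector of NOTCH (8 and 4), and Tcf7l2, an effector of WNT (4 and 7), were named after their values were seen. Of the 5 TGF-beta and SMAD genes tested, 3 had the higher share in anterior and 2 in posterior tumours (median difference 4.91, 0 calls), with Acvr1, a BMP receptor, in 4 and 3 tumours and Bmpr2 in 5 and 1. Of the 11 adhesion and polarity genes tested, 8 had the higher share in anterior and 3 in posterior tumours (median difference 1.67, 0 calls).

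Of the 11 chromatin regulators tested, 4 had the higher share in anterior and 7 in posterior tumours (median difference -0.74, 0 calls). Kmt2c, a methyltransferase of histone H3, was hit in 13 anterior (24.1%, 13.5 to 37.6) and 11 posterior tumours (27.5%, 14.6 to 43.9, exact p = 0.790). Kdm6a, a histone demethylase, was hit in 6 (11.1%) and 5 (12.5%). Of the cohesin and microRNA silencing genes, Nipbl, the loader of cohesin, was hit in 7 and 6 tumours and Stag1, a cohesin subunit, in 10 and 6, with 0 of 4 members called.

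Of the 7 mammary lineage transcription factors tested, 4 had the higher share in anterior and 3 in posterior tumours (0 calls) and at least 1 member was hit in 83.3% and 90% of tumours, with Trps1 and Esr1 the most frequent. At least 1 gene of the cell cycle and p53 list was hit in 27.8% and 27.5%, with Rb1, the retinoblastoma gene, in 5 and 5 and Cdk6 in 6 and 2. The 23 long genes divided into 11 higher in anterior and 12 higher in posterior tumours. Genes that mark other cells of the gland, such as fibroblasts, were hit in 12.96% and 20%, and none of them (0) was hit often enough to be tested. Col1a2, a collagen gene of fibroblasts, was hit in 0 and 3 tumours and Dcn, a fibroblast proteoglycan gene on chromosome 10, in 2 and 2.

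The gland difference in site number was set beside that of the resistant tumours, and the difference between the treatment groups did not pass the test. The mean difference of anterior minus posterior log10(1 + sites) was 0.05 (SD 0.77, 20 mice) without treatment and -0.33 (SD 0.51, 11 mice) in resistant tumours. The difference between these means was 0.37 (permutation of treatment over mice, p = 0.161). Without the mouse of anterior tumours 34 and 51, the pair of near-empty libraries, it was 0.49 (p = 0.0273), and without the 9 untreated libraries that stood apart it was 0.35 (p = 0.0319), past the threshold in both cases. When the 4 resistant libraries with under 50 such positions were left out as well, it was 0.21 (permutation p = 0.168), with a resistant mean of -0.19. Of these 4, only resistant anterior tumour 32 (51 reads, 0 kept sites) came from a mouse with both classes, so it alone changed the value. This near-empty library was part of the mean of -0.33 and of the values given before. The difference between the means was 0.59 (permutation p = 0.0731) for sites of at least 100 reads. Among the 100 most-read sites of each tumour it was 0.066 (permutation p = 0.555). That setting holds the site number at 100 or fewer in every tumour, so it cannot show whether the difference persists. Of the resistant tumours, 84.2% of 38 anterior and 69.2% of 13 posterior ones were hit in Trps1, and 36.8% and 61.5% in Fbxw7, whose higher share here lay with the posterior class.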

How the data were processed

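Integration sites were mapped in mouse mammary tumour DNA by splinkerette PCR and sequenced in pools, per the labels' protocols, and positions refer to mm10 per the submitters' processing notes. The aligner and the site caller are not stated in the sources used here. As deposited by the authors, the site table held, for each of 198107 positions and each library, a whole-number read count and a further whole number that the file header does not define, treated here as a score and used in 1 alternative only. The authors' gene table gave gene regions with a 2000-base upstream part and the percent of untreated tumours with an insertion, computed by the authors before deposit by rules the file headers do not state. Of its 13391 regions, 12384 were matched by Entrez identifier to a RefSeq symbol (GRCm38.p6). Another 580 per-library columns were not used.

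A site needed 10 reads and was kept, per position and strand, in the tumour with the most reads of all tumours. Library reads ranged from 2950 to 938987. Sites were counted from reads and not from molecular identifiers, so intervals (exact Clopper-Pearson, 95%) cover counting of tumours only. Those of differences came from 20000 permutations within mice. The mouse number in the title was the block: gland class was shuffled within mice 100000 times for 7 tumour measures, with Benjamini-Hochberg adjustment. Genes hit in at least 5 tumours got an exact test stratified by mouse, with Benjamini-Hochberg adjustment over 1470 genes and a threshold of 0.05. The scripts were checked on simulated data. Strand came from RefSeq promoters or, failing that, from the extended end of a region, and where both existed (7465 regions) they were the same in 7463.

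The genes named are the 12 with the smallest p, the 10 hit in the most tumours, the 2 most-hit members of each of 12 lists and hit members of the positional list, and others are said to be chosen after their values were seen. Some genes that the rule or lists would admit are not reported here. The glands, lists and tests were chosen with earlier results of these data known. Alternatives covered the block, read minimum, position rule, TTAA sites, chromosome 10, title form, depth and each untreated mouse left out. Python 3.11.15, numpy 2.4.6, scipy 1.17.1, pandas 2.3.3 and matplotlib 3.10.9 were used.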

Additional observations from a re-analysis of the deposited data

How the results depend on the processing

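No gene was called under any setting run (0 calls), and no tumour measure passed its test. The differences are anterior minus posterior, in log10 for site number, genes hit per tumour and library reads and in percentage points for the gene share of sites and the other shares. The donor chromosome share of sites is the name used here for the share on chromosome 10. Where the transposon started was not tested. The cause of the changes below was not tested. Without the replicate block the gene share turned to -0.0299 and Fisher's exact test had 36 genes at an unadjusted p under 0.05 against 46 with it. The gene share also turned at 100 reads (-1.39), without chromosome 10 (-0.544), in TgTum alone (-0.551) and without the library that shares its positions (-0.282). The positions shared with the mouse's other tumours turned at 100 reads (-1.78) and in tgTum alone (-0.278). The donor chromosome share of sites turned with sites of at least 0.1% of the reads (0.97) and without the 9 libraries (0.73). Site number turned where positions were kept in every tumour (-0.0239), in TgTum alone (-0.0095) and without the 9 libraries (-0.0051). At 5000 reads the difference was -0.068, but for listed positions of 88 libraries and not for kept sites. Genes hit per tumour turned where positions were kept in every tumour (-0.0235), in TgTum alone (-0.0257), without the library that shares its positions (-0.00367) and without the 9 (-0.00274). Library reads turned in tgTum alone (-0.081). The count of 46 became 80 at 1 read, 4 at 100 reads, 13 at 0.1%, 3 with the 100 most-read sites, 0 with the undefined column (1 gene tested), 2 in tgTum alone, 20 for genes hit in 10 tumours and 14 by the sign test. The settings without the library that shares its positions and without the 9 libraries, and the treatment comparison without libraries of few positions, were chosen after seeing the data. Without the 9, the treatment difference was 0.35 (p = 0.0319). With positions assigned among untreated tumours only it has no value, since resistant tumours then keep no site.

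Among the 10 genes hit in the most tumours, the difference turned for Pcdh15 at 1 read (2.78) and in tgTum (13.3). It turned for Nkain2 at 1 read (-1.57), 100 reads (-4.07), 0.1% (-13.6), the top 100 (-0.93), TTAA only (-0.83), tgTum (-4.44) and without the sharing library (-0.71). For Grik2 it turned at 1 read (0.28), 100 reads (3.33), the top 100 (5.93) and without the R2 library (0.42). For Trps1 it turned at 100 reads (7.5) and in the undefined column (8.52), and for Ptprk at 100 reads (7.31). Utrn turned at 0.1% (3.89) and in tgTum (4.44), Plekhg1 at 0.1% (-9.63), the top 100 (-0.093) and in TgTum (-0.11), Ctnna3 with positions kept in every tumour (-0.83) and in tgTum (-8.89), and Esr1 in tgTum (23.3). Members of the lists with few hits changed sign too, over the settings run: Kmt2c ranged from -15 to 15.6, Stag1 from -13.3 to 11.8, Nf1 from -7.78 to 7.11, Lats1 from -5.0 to 5.93, Inpp4b from -4.72 to 4.44, Nipbl from -7.33 to 5.56, Kdm6a from -6.11 to 5.56, Rb1 from -8.89 to 5.56, Nrg3 from -1.11 to 7.87, Cdk6 from -0.65 to 7.96 and Acvr1 from -0.89 to 0.047. Fbxw7 ranged from 1.85 to 24.1, lowest with the undefined column. The 12 genes with the smallest p kept their sign in the 12 to 16 settings that tested them. They were picked for their split in these same tumours, so a kept sign is no support for a difference.

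Leaving out each mouse in turn, site number ranged from -0.021 to 0.13, genes hit per tumour from -0.033 to 0.12, gene share of sites from -1.29 to 0.84, donor chromosome share of sites from -1.31 to -0.26, the top site read share from -0.44 to 3.54, library reads from -0.0017 to 0.12 and positions shared with the mouse's other tumours from 0.52 to 3.47. With each of the 23 untreated mice left out, the treatment difference ranged from 0.29 to 0.49. No resistant mouse was left out of it. Over the 14 other settings it ranged from 0.046 with the undefined column to 0.59 at 100 reads. The count at an unadjusted p under 0.05 ranged from 31 to 50 over the mice left out. Pcdh15 ranged from -7.05 to 1.82, Nkain2 from -1.31 to 5.88, Grik2 from -3.85 to 4.37, Ctnna3 from -2.86 to 4.84 and Plekhg1 from -0.33 to 8.63. Others that crossed 0 were Nipbl (-5.38 to 2.94), Acvr1 (-2.13 to 2.42), Rb1 (-6.73 to 1.89), Kdm6a (-5.31 to 1.19), Kmt2c (-6.35 to 0.68), Inpp4b (-0.61 to 6.57), Nf1 (-0.20 to 4.21), Dcn (-3.41 to 1.21) and Ascc3 (-2.63 to 4.22). Few positions limit what could be seen: 8 libraries, of 2950 to 181033 reads, had under 25 positions of 10 reads. The interval of the site ratio reached from 0.583 to 2.16, and most genes had too few hits to be a first call at any split.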
